A study of Mus musculus with 6 samples.

Results

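Small nucleolar RNA (snoRNA) fragments were described in mouse serum from 6 small RNA libraries, prepared in pairs with the kits NEBNext, TruSeq and TailorMix. They were taken as the sequences that the deposited lists class as snoRNA and nothing else, with the annotated gene that each sequence lies in (called a feature here). The 6 libraries held 12206 such reads on 327 of the 1919 features listed in all classes. All groups shared the same source: serum of healthy male and female 129/SVj mice, an inbred laboratory strain, aged 2 to 9 months, collected by cardiac puncture and used mouse by mouse. The kits were compared on untreated serum RNA, and all libraries were selected at 125 to 153 bp after amplification. The labels number the serum 1 and 2 in every kit but do not tie a library to a mouse, so p-values measure the spread between these libraries, which may be technical. The 2 libraries of a kit differed by more than counting noise, with a chi-square per degree of freedom over features of 2.95 (NEBNext), 2.13 (TruSeq) and 9.74 (TailorMix). These values include 2 features that complemented each other between the libraries of a kit, as described below. In TailorMix, Gm23927 had 364 and 193 reads and ENSMUSG00000064807 had 2 and 274, and no value without these 2 was computed. The lists name miRNAs only by identifier, so serum was not checked against marker genes.

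snoRNAs are stable RNAs of the nucleolus, where they guide chemical modification of ribosomal RNA. Box C/D snoRNAs guide 2′-O-methylation and carry a C box near the 5′ end and a D box near the 3′ end, whereas H/ACA snoRNAs guide pseudouridylation and end in a short tail after the ACA box. Relatives called scaRNAs act on spliceosomal RNAs in Cajal bodies. Most mammalian snoRNAs are cut out of introns of host genes, often genes for ribosomal proteins or noncoding hosts such as Gas5, and a few, such as U3 (Rnu3a) and U8 (Snord118), act in cleavage of the ribosomal RNA precursor instead of modifying it. Fragments of snoRNAs occur among extracellular small RNAs, and some snoRNA genes also hold an annotated miRNA.

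A set of snoRNAs on which the kits differed is shown first, because each is a separate short RNA with its own ends. The sequences are those of the GENCODE genes (GRCm38), not of the reads, which the lists used here do not give. Capitals mark the core of the C box (TGATG, searched in the first 25 bases of the transcript strand) and the D box (CTGA, in the last 15 bases), or for H/ACA RNAs the ACA near the 3′ end. Of 1558 GENCODE snoRNA and scaRNA genes, 25.03% held the first word in its window and 30.9% the second, against 57.1% and 62.8% of the 312 features with reads and a transcript sequence. Snord104 and the 2 small C/D RNAs of Rack1 introns, Snord95 and Snord96a, with Snord61 from an intron of Rbmx, are shown for the opposite behaviour of RNAs of similar build.
Snord104: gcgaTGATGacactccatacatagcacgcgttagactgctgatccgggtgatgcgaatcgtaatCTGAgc
Snord95: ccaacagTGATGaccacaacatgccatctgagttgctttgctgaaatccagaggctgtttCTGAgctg
Snord96a: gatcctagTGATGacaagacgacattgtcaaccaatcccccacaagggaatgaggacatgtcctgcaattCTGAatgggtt
Snord61: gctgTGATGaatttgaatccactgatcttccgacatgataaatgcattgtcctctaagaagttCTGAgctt
Snord104 lies at chr11:106500993-106501062 on the plus strand, in no annotated host gene. Snord95 (chr11:48803139-48803206) and Snord96a (chr11:48802032-48802112) are both on the plus strand in introns of Rack1, which encodes a protein of the small ribosomal subunit, and Snord61 (chrX:57391449-57391519) is on the minus strand.

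A further set is shown because its members were frequent with only some kits or hold a miRNA. Rnu73b lies in an intron of the ribosomal protein gene Rps3a1 (chr3:86140618-86140688, minus strand) and Gm24148 in an intron of Ncl, the gene for nucleolin (chr1:86352008-86352087, minus strand). Gm24523 is an H/ACA RNA in an intron of Rpl30 (chr15:34440791-34440922, minus strand), and Mir1839 a scaRNA within an exon of 2900076A07Rik (chr7:81529855-81529981, plus strand).
Rnu73b: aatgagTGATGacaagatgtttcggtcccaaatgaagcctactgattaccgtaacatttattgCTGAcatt
Gm24148: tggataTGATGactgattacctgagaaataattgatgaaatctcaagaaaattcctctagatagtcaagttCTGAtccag
Gm24523: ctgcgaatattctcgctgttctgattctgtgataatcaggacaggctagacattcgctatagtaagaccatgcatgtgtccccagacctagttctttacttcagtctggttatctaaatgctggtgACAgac
Mir1839: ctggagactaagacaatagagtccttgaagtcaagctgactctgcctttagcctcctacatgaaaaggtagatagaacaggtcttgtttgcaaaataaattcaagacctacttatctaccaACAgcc
The RefSeq miRNA in Mir1839, miR-1839-5p, starts at base 65 of the scaRNA and the one in Gm24148, miR-3535, at base 1, so that its seed covers part of the C box. Their mature sequences are given with the seed (bases 2 to 8) in capitals.
miR-1839-5p: aAGGUAGAuagaacaggucuug
miR-3535: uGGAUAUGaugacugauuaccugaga

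snoRNA reads were a small part of every library. NEBNext replicates 1 and 2 held 2750 and 2139 snoRNA reads, the TruSeq libraries 1985 and 1555 and the TailorMix libraries 1861 and 1916. Annotated reads, the sum of both lists of a library and the denominator used here, lay between 5144833 and 26256012, and most were tRNA. The snoRNA share of annotated reads was 0.0105% and 0.0126% in NEBNext, 0.0171% and 0.0165% in TruSeq and 0.0362% and 0.0361% in TailorMix. The 95% Wilson intervals, which cover counting error only, ran from 0.0101% to 0.0109% in the lowest library and from 0.0346% to 0.0379% in the highest. TailorMix libraries were thus highest and NEBNext lowest, without overlap, and the means were 0.0115% ± 0.0015, 0.0168% ± 0.00040 and 0.0362% ± 0.000019 (SD, n = 2 each; F ratio of the kits, exact permutation over 15 groupings, two-sided, p = 0.0667, the smallest this design can give). That test was run on 4 measures, and the Benjamini-Hochberg adjusted exact p was 0.0889 for this one.

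The order of the kits turned with the denominator. Of annotated reads other than tRNA, snoRNA made up 0.985% and 0.990% in NEBNext, 0.539% and 0.523% in TruSeq and 0.797% and 0.810% in TailorMix, so NEBNext was then highest and TruSeq lowest. Of reads that were neither tRNA nor miRNA, the shares were 5.05% and 4.20%, 11.9% and 10.3%, and 4.64% and 4.84%, and TruSeq was highest while the other kits overlapped. For each snoRNA read there were 81.8 and 77.2 miRNA reads in NEBNext, 177 and 181 in TruSeq and 104 and 103 in TailorMix. The snRNA reads per snoRNA read were 3.27 and 3.82, 0.484 and 0.603, and 2.53 and 2.48 in the same order.

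**Figure D1:**
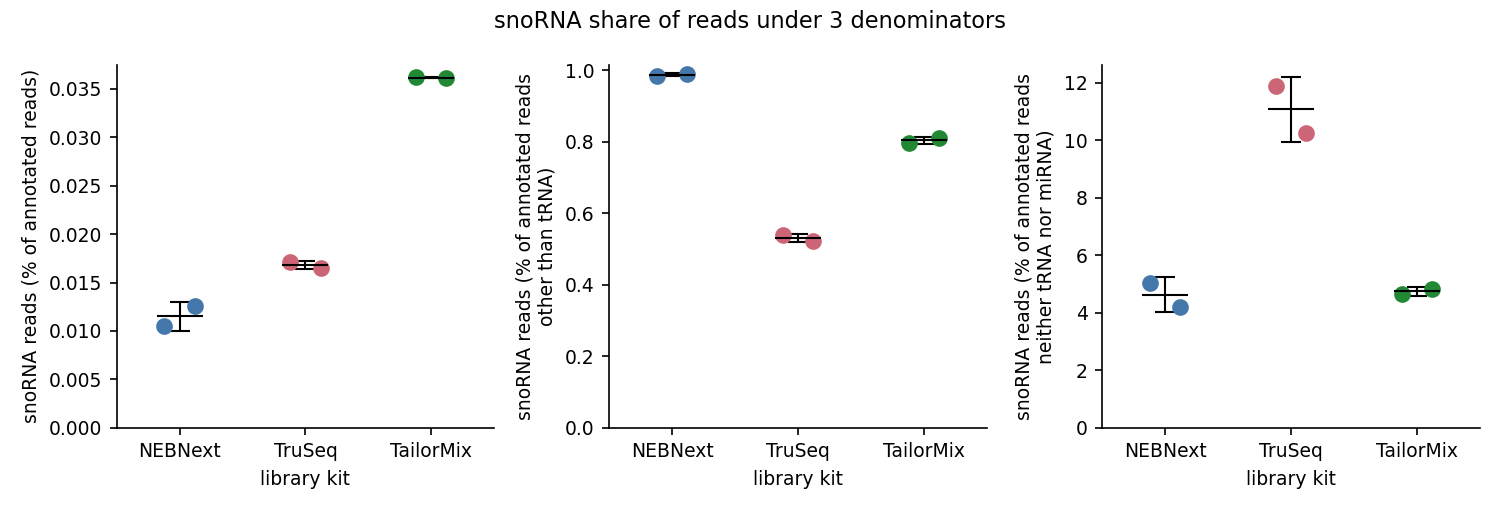
Each point is a library, the bar its kit mean and the whisker the SD (n = 2), and the y axes give snoRNA reads as a percentage of 3 denominators for each kit on the x axis. TailorMix is highest of annotated reads at 0.0362%, NEBNext of reads other than tRNA at 0.985% and 0.990%, and TruSeq of reads neither tRNA nor miRNA at 11.9% and 10.3%.

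The snoRNA reads were spread over many rare sequences and concentrated on few features. NEBNext libraries held 956 and 827 distinct snoRNA sequences, TruSeq 476 and 422 and TailorMix 433 and 497, and between 52.7% and 64.6% of these sequences were a single read. With at least 4 reads, 89 and 84 features were detected in NEBNext, 54 and 48 in TruSeq and 63 and 62 in TailorMix (exact permutation p = 0.0667, adjusted 0.0889). After all libraries were thinned to 1555 snoRNA reads the numbers were 66 and 66, 45 and 48, and 56 and 51, in the same order of kits. The 10 most abundant features of a library took 44.7% and 40.9% of snoRNA reads in NEBNext, 63.6% and 62.9% in TruSeq and 59.4% and 61.2% in TailorMix (exact permutation p = 0.0667, adjusted 0.0889). NEBNext libraries were therefore the most diverse, needing 12 and 14 features to reach 50% of the reads against 6 or 7 in the other 4 libraries.

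**Figure D2:**
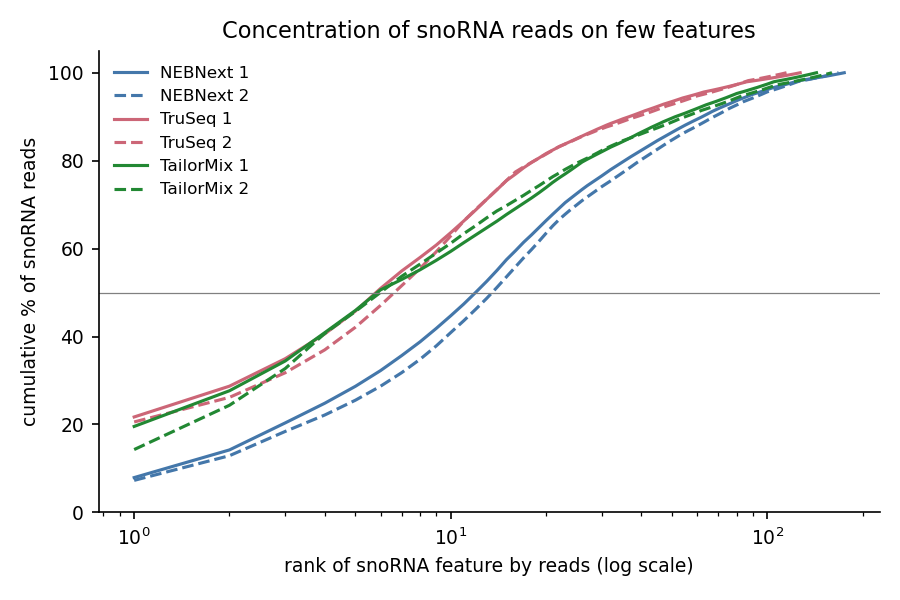
Each line is a library, with features ranked by reads on a log x axis and the cumulative percentage of snoRNA reads on the y axis. The NEBNext lines lie lowest at rank 10, at 44.7% and 40.9%, and the TruSeq and TailorMix lines lie between 59.4% and 63.6%.

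A core of 52 features was listed in all 6 libraries and held 9781 of the 12206 reads, while 128 features appeared in 1 library only, with 207 reads. Only 27 features had at least 4 reads in every library, and 192 had fewer than 4 in all of them. Of the 327 features, 313 matched a GENCODE gene, and the 14 unmatched identifiers held 722 reads. The matched features lay in 144 host genes for 280 of them, 178 in protein-coding hosts, and 42 in 23 ribosomal protein genes. The reads on ribosomal protein hosts made up 17.1% and 17.02% of snoRNA reads in NEBNext, 13.4% and 13.9% in TruSeq and 11.2% and 10.3% in TailorMix. Within host genes, 238 features overlapped no exon of the host and 42 overlapped one.

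Box C/D RNAs provided most snoRNA reads with every kit. From gene names, box motifs and shared sequence, 191 features were classed as C/D, 84 as H/ACA and 16 as scaRNA, 22 stayed unassigned and 14 were unmatched. The C/D share of snoRNA reads was 74.1% and 70.0% in NEBNext, 81.9% and 84.3% in TruSeq and 79.5% and 68.9% in TailorMix. The TailorMix libraries spanned the NEBNext values (exact permutation p = 0.333, adjusted 0.333), and in TailorMix replicate 2 unmatched identifiers held 18.7% of the reads. H/ACA RNAs took 8.65% and 10.1% in NEBNext, 8.51% and 8.04% in TruSeq and 3.92% and 5.58% in TailorMix. scaRNAs took 13.6% and 13.5% with NEBNext, against 7.05% and 5.27% with TruSeq and 5.91% and 5.74% with TailorMix. Both NEBNext libraries thus lay above all others for scaRNA, and both TailorMix libraries below all others for H/ACA. A single scaRNA, Mir1839, held 169 of the 374 and 118 of the 288 scaRNA reads in NEBNext. In TruSeq it held 2 of 140 and 2 of 82, and in TailorMix 37 of 110 and 35 of 110.

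Snord104, a C/D RNA that guides methylation of ribosomal RNA, was the leading feature with NEBNext and TruSeq. It had 218 and 156 reads in NEBNext, 431 and 320 in TruSeq and 120 and 160 in TailorMix. These reads were 7.61% ± 0.45, 21.1% ± 0.80 and 7.40% ± 1.3 of snoRNA reads (SD, n = 2 each), so its TruSeq share stood above both other kits. A single sequence carried most of them, with 136 of the 218 and 95 of the 156 reads with NEBNext, 294 and 215 reads with TruSeq and 91 and 119 with TailorMix. Scaled to annotated reads (RPM), Snord104 was higher with TruSeq than with NEBNext (log2 fold change 2.02 ± 0.29 SE, edgeR quasi-likelihood, adjusted p = 0.0123). Without NEBNext replicate 1 or 2 that adjusted p was 0.055 or 0.052, and scaled to reads other than tRNA the log2 fold change was 0.58.

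**Figure D3:**
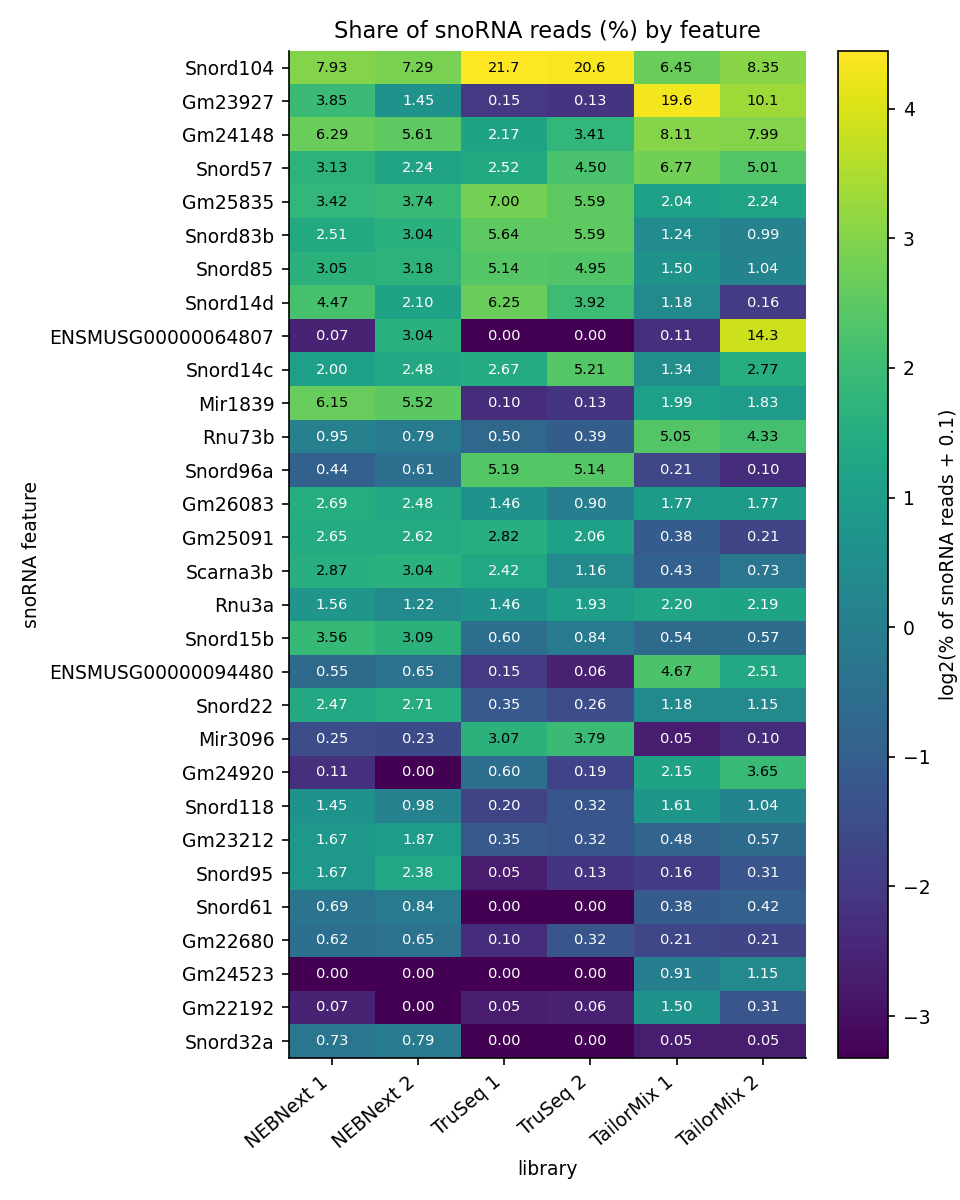
Rows are the 30 named features with the highest mean share, columns are libraries, and each cell prints the percentage of snoRNA reads, coloured as log2(percentage + 0.1). Snord104 leads the TruSeq columns at 21.7% and 20.6%, Gm23927 the first TailorMix column at 19.6% and ENSMUSG00000064807 the second at 14.3%.

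In the test of single features, 90 snoRNA features had at least 4 reads in at least 2 libraries and were fitted together with all other classes, 930 features in all, scaled to annotated reads. Between TruSeq and NEBNext, 10 snoRNA features were higher with TruSeq and 8 lower at an adjusted p under 0.05 (edgeR), 18 of the 90 tested, against 29% of all features (12.9% higher and 16.1% lower). Between TailorMix and NEBNext, 21 were higher with TailorMix and 0 lower, 23.3%, against a background of 31.2% (23.7% higher and 7.53% lower). At an unadjusted edgeR p under 0.05, 34 were higher and 9 lower in that comparison, and DESeq2 called 13 higher and 8 lower. Between TailorMix and TruSeq, 27 were higher with TailorMix and 6 lower, 36.7%, against 40% (30.4% higher and 9.57% lower). The median log2 fold change of the 90 snoRNA features was -0.42, 0.75 and 1.38 in these comparisons, close to the -0.57, 0.67 and 1.33 of all features, so a difference of a single snoRNA is best read against that shift. The libraries of the kits compared did not overlap for 74.4%, 66.7% and 67.8% of the snoRNA features tested, against 69.5%, 69.7% and 70.9% of all features. The split of directions depended on the scaling, since TMM normalization gave 11 higher and 10 lower, 13 and 8, and 15 and 12. Scaled to snoRNA reads, the splits were 4 and 16, 7 and 20, and 15 and 11, and scaled to reads other than tRNA they were 2 and 35, 6 and 24, and 19 and 7.

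Fewer calls remained with single libraries left out. Without NEBNext replicate 1 or 2, 5 and 4 features were called between TruSeq and NEBNext, 6 and 9 between TailorMix and NEBNext, and 28 and 28 between TailorMix and TruSeq. Leaving out TruSeq replicate 1 or 2 gave 6 and 6, 20 and 20, and 18 and 16. For TailorMix replicate 1 or 2 the counts were 14 and 15, 6 and 9, and 12 and 15. Of the 48 differences called among the features named by rule, 18 were called with every single library left out and 13 under every setting run, and the folds given below belong to these 13 unless a limit is stated with them.

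The small C/D RNAs of Rack1 introns went in opposite directions between kits. Snord95 had 46 and 51 reads in NEBNext, 1 and 2 in TruSeq and 3 and 6 in TailorMix. Snord96a had 12 and 13 reads in NEBNext, 103 and 80 in TruSeq and 4 and 2 in TailorMix. Gm25296, the other C/D RNA of this host, had 54 and 72, 9 and 9, and 5 and 5 reads. Snord95 and Gm25296 have the same sequence over their 3′ part, so reads within it cannot be told apart. TruSeq libraries were thus lowest of all for Snord95 and highest for Snord96a. With at most 2 Snord95 reads in a TruSeq library, the size of its fold given below is uncertain. Summed over the 3 RNAs, there were 112 and 136 reads in NEBNext, 113 and 91 in TruSeq and 12 and 13 in TailorMix. Snord96a was higher with TruSeq than with TailorMix (log2 fold change of TailorMix over TruSeq -3.89 ± 0.54 SE, edgeR adjusted p = 0.0086) and than with NEBNext (3.82 ± 0.50 SE, edgeR adjusted p = 0.00924, and 0.050 without NEBNext replicate 1). Snord95 was lower with TruSeq than with NEBNext (-3.94 ± 0.69 SE, edgeR adjusted p = 0.0179), a call lost without NEBNext replicate 2 (0.058), TruSeq replicate 1 (0.092) or TruSeq replicate 2 (0.068).

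Both RNAs belong, with Snord61, Snord68 and Snord72, to the snoRNAs that are commonly used as reference genes in miRNA PCR. Snord72 was listed in no library. Snord61 had 19 and 18 reads in NEBNext, 0 and 0 in TruSeq and 7 and 8 in TailorMix, and Snord68 had at most 4 in any library. Against a floor of 3 reads in each TruSeq library, Snord61 was at least 3.09-fold higher with NEBNext and at least 4.98-fold higher with TailorMix in RPM. The 4 reference RNAs with reads summed to 2.95% and 3.93% of snoRNA reads in NEBNext, 5.34% and 5.402% in TruSeq and 0.752% and 0.939% in TailorMix. Of the 3 tested, 1 was higher and 2 lower with TruSeq than with NEBNext, against 12.9% and 16.1% of all features. Snord95, lower with TruSeq, would not have passed the filter of 4 reads in 2 libraries without its NEBNext libraries.

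**Figure D4:**
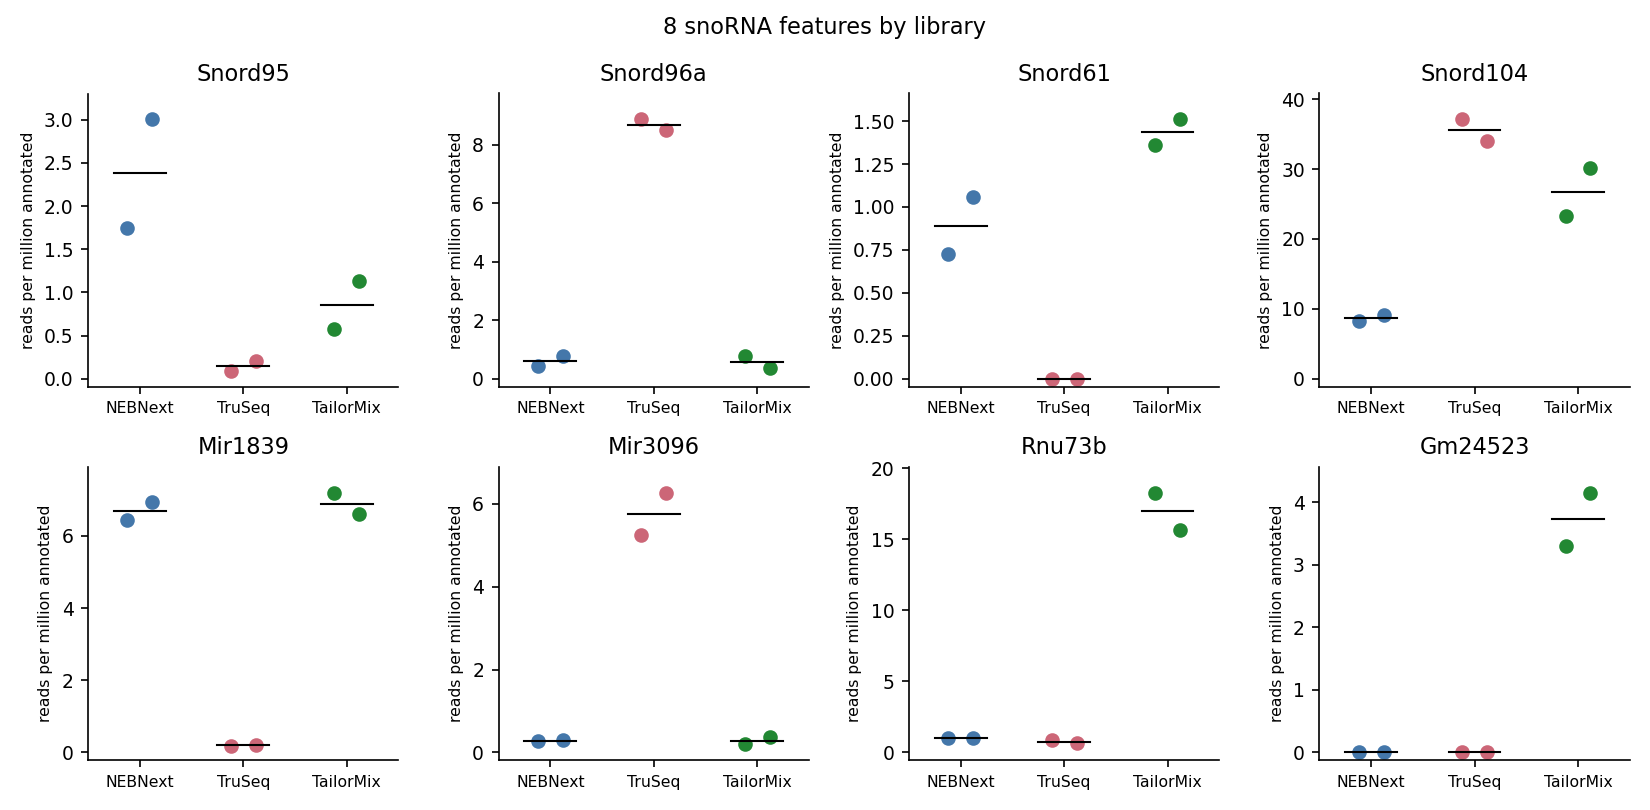
Each panel is a feature, with RPM on the y axis, a point for each library and a line at the mean of each kit on the x axis. TruSeq is highest for Snord96a, Snord104 and Mir3096 and lowest for Snord95, Snord61 (at 0 and 0 reads) and Mir1839, while only the TailorMix libraries hold Gm24523 reads.

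There were 14 features that hold a mature miRNA of RefSeq within the gene. Mir3096 and Mir5117, named as miRNA genes, had none lying wholly within the gene and are not among them. A miRNA that reaches past an end of the gene was not counted. The 14 had 2007 reads, 20.8% and 19.4% of snoRNA reads in NEBNext, 14.1% and 12.8% in TruSeq and 14.1% and 14.5% in TailorMix. Of the 8 tested, 2 were higher and 1 lower with TruSeq than with NEBNext, 2 were higher with TailorMix than with NEBNext, and 3 were higher and 1 lower with TailorMix than with TruSeq, against 29%, 31.2% and 40% of all features called in either direction. Mir1839 had 169 and 118 reads in NEBNext, 2 and 2 in TruSeq and 37 and 35 in TailorMix. It was lower with TruSeq than with NEBNext (log2 fold change -5.06 ± 0.38 SE, edgeR adjusted p = 0.00284), and TailorMix exceeded TruSeq (5.10 ± 0.38 SE, edgeR adjusted p = 0.00258), while in RPM the NEBNext and TailorMix libraries overlapped. The size of both folds is uncertain, since no TruSeq library had more than 2 Mir1839 reads. Gm24148 had 173 and 120 reads in NEBNext, 43 and 53 in TruSeq and 151 and 153 in TailorMix, and was higher with TailorMix than with TruSeq (2.64 ± 0.35 SE, edgeR adjusted p = 0.00816). Its NEBNext reads fell on 59 and 52 distinct sequences with at most 24 reads each, whereas its TailorMix reads fell on 11 and 20 sequences led by one of 75 and of 93 reads. The lists count reads on mature miRNAs apart from those classed as snoRNA, and which bases of these genes the reads covered is not in them.

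Mir3096, classed as a C/D RNA from sequence shared with a named one and lying in an intron of AI506816, followed the pattern of Snord96a. It had 7 and 5 reads in NEBNext, 61 and 59 in TruSeq and 1 and 2 in TailorMix. TruSeq libraries were the highest without overlap, with a log2 fold change over NEBNext of 4.32 ± 0.43 SE (edgeR adjusted p = 0.00469) and of TailorMix over TruSeq of -4.28 ± 0.48 SE (edgeR adjusted p = 0.00529). The size of the latter is uncertain, since no TailorMix library had more than 2 Mir3096 reads. Within the 2 TruSeq libraries the leading Mir3096 sequence had 23 and 21 reads.

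Rnu73b was a C/D RNA that was higher with TailorMix than with either other kit. It had 26 and 17 reads in NEBNext, 10 and 6 in TruSeq and 94 and 83 in TailorMix, from the smallest libraries of the series. The log2 fold change of TailorMix was 4.08 ± 0.35 SE over NEBNext (edgeR adjusted p = 0.00369) and 4.48 ± 0.37 SE over TruSeq (edgeR adjusted p = 0.00291). A single sequence made up 59 and 49 of its TailorMix reads. Snord73a, which lies in the same host gene Rps3a1, had 24 and 13 reads in NEBNext, 2 and 0 in TruSeq and 19 and 23 in TailorMix.

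Gm24523, the H/ACA RNA of Rpl30, had 17 and 22 reads with TailorMix and none in the other 4 libraries. Against the floor of 3 reads a library, it was at least 25.6-fold higher with TailorMix than with NEBNext and at least 12.9-fold higher than with TruSeq in RPM. Its reads came from 2 and 3 distinct sequences, led by one of 14 and of 15 reads. The other 2 features with at least 4 reads in both TailorMix libraries and 0 elsewhere, Gm23286 and Gm24966, are repeats of Snhg14 and are described next. With NEBNext, 4 features met that condition, namely Snord21 with 17 and 21 reads, Snora3 with 12 and 10, Gm24698 with 4 and 13 and Gm23344 with 7 and 4, and with TruSeq there was none. A feature listed with 0 reads was not detectable at this depth and may be present below the floor.

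Snhg14, the imprinted noncoding host gene of the Prader-Willi locus, holds long tandem arrays of C/D RNAs that are best known from neurons. With TailorMix, 89 and 91 reads fell on its snoRNAs, against 1 and 0 with NEBNext and 1 and 2 with TruSeq. These were 4.78% and 4.75% of the snoRNA reads of the TailorMix libraries. Their mean level with TailorMix, 17.2 RPM, was 118-fold the level of 3 reads in a NEBNext library and 59.8-fold that in a TruSeq library. Since some of those libraries did hold reads, these ratios are not lower bounds. They came from 55 features of 2 arrays, 43 copies of at most 79 bases and 12 copies of 94 bases. A copy of each array is shown, since copies within an array share stretches of sequence, and a read within such a stretch cannot be assigned to 1 copy.
Gm23286: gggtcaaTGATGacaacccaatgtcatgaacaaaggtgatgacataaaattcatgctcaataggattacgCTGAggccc
Snord116l4: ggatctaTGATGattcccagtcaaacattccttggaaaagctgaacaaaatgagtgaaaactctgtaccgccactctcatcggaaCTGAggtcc
Gm23286 (chr7:59561472-59561550) and Snord116l4 (chr7:59889593-59889686) are both on the minus strand, and Gm23286 shares words of 18 bases with 135 other snoRNA genes.

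The shorter repeats took most of the reads. They had 77 reads on 37 distinct sequences and 23 copies in TailorMix replicate 1 and 74 reads on 40 sequences and 26 copies in replicate 2, and the leading sequence had 17 and 7 reads. The 94-base repeats had 12 and 17 reads with TailorMix and 0 in the other 4 libraries. Reads were therefore spread over many distinct sequences in both TailorMix libraries, and did not come from 1 abundant sequence. The number of copies depends on how reads on shared stretches were assigned. Only 2 of the 55 features passed the filter on low counts, through the TailorMix libraries in which they were high, so the test of single features says little about the arrays. The other imprinted cluster searched, Dlk1-Dio3 with the host Rian, had 4 reads in all on 2 features.

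**Figure D5:**
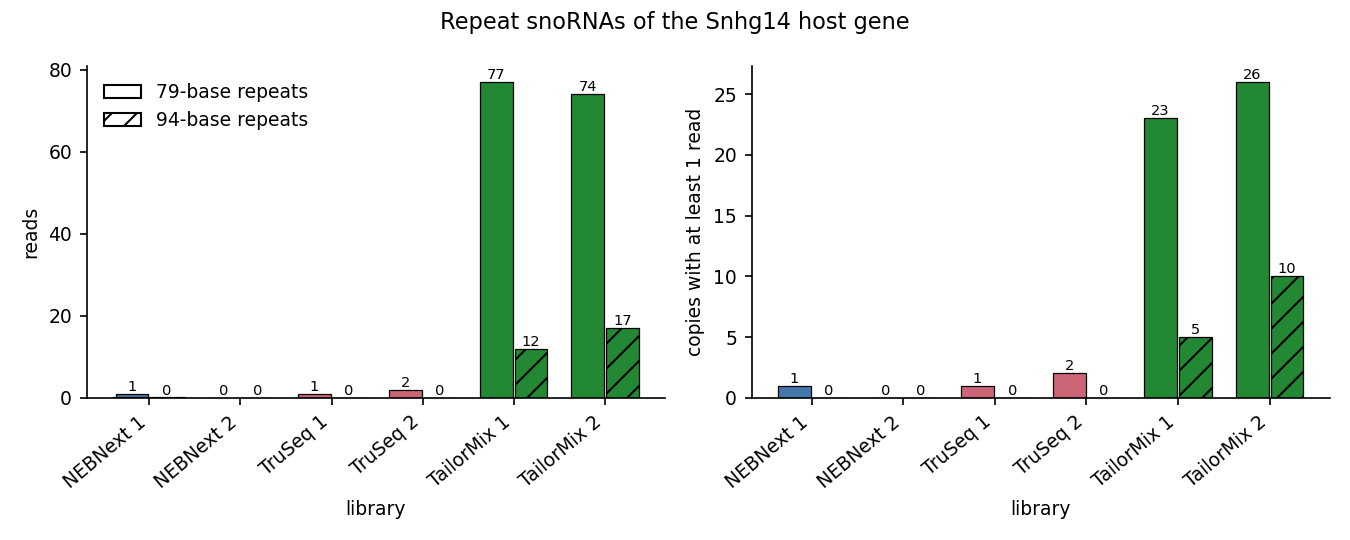
Bars show, for each library on the x axis, the reads (left) and the number of copies with at least 1 read (right) of the shorter repeats (plain) and the 94-base repeats (hatched). The shorter repeats reach 77 and 74 reads with TailorMix and at most 2 in any other library.

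Among the RNAs of ribosomal RNA precursor cleavage, the U3 family had the most reads with TailorMix and U14 the most in the 4 other libraries, with unmatched identifiers left out. The family was Rnu3a and 5 features that shared words of 18 bases with it. It took 6.11% and 3.41% of snoRNA reads in NEBNext, 2.07% and 2.25% in TruSeq and 21.98% and 12.4% in TailorMix. With the unmatched ENSMUSG00000064807, described below, it took 6.18% and 6.45% in NEBNext and 22.1% and 26.7% in TailorMix. U14 took 6.62% and 4.63% in NEBNext, so in NEBNext replicate 2 it was then below U3. Rnu3a itself had 43 and 26 reads in NEBNext, 29 and 30 in TruSeq and 41 and 42 in TailorMix, or 1.64 and 1.53, 2.495 and 3.19, and 7.97 and 7.92 RPM. In RPM it was thus highest in both TailorMix libraries, with a log2 fold change of 2.32 ± 0.33 SE over NEBNext (edgeR adjusted p = 0.00926) and 1.48 ± 0.32 SE over TruSeq (edgeR adjusted p = 0.0246), calls lost under 5 and 10 of the 16 other settings. The family member with the most reads was Gm23927, a copy at chr19:4078298-4078512. Gm23927 had 106 and 31 reads in NEBNext, 3 and 2 in TruSeq and 364 and 193 in TailorMix, and was higher with TailorMix than with TruSeq (log2 fold change 7.77 ± 0.76 SE, edgeR adjusted p = 0.00411). The size of that fold is uncertain, since no TruSeq library had more than 3 reads. Gm23927 shared 18.7% of its words of 18 bases with Rnu3a, and which parts the reads covered is not in the lists.

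An identifier without a GENCODE match, ENSMUSG00000064807, complemented Gm23927 between the libraries of a kit. It had 2 and 65 reads in NEBNext, 0 and 0 in TruSeq and 2 and 274 in TailorMix. The leading sequence of Gm23927 had 58 reads in NEBNext replicate 1 and 300 in TailorMix replicate 1, and the leading one of ENSMUSG00000064807 had 62 in NEBNext replicate 2 and 270 in TailorMix replicate 2. Summed over both identifiers, the reads were 108 and 96 in NEBNext, 3 and 2 in TruSeq and 366 and 467 in TailorMix, or 4.21% ± 0.40, 0.140% ± 0.016 and 22.02% ± 3.3 of snoRNA reads (SD, n = 2 each). In NEBNext and in TailorMix the replicates were thus closer to each other for the sum than for either identifier, and whether both list 1 sequence was not tested, since read sequences are not in the lists. A further unmatched identifier, ENSMUSG00000094480, had 15 and 14 reads in NEBNext, 3 and 1 in TruSeq and 87 and 48 in TailorMix (log2 fold change of TailorMix over TruSeq 6.05 ± 0.68 SE, edgeR adjusted p = 0.00529). The size of this fold is uncertain too, with at most 3 reads in a TruSeq library.

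U14, represented by the Snord14 genes, had 182 and 99 reads in NEBNext, 177 and 142 in TruSeq and 47 and 56 in TailorMix, 700 of its 703 reads on the 3 copies in Hspa8. Snord14c and Snord14d are both 86 bases long and differ at 2 positions, so reads outside these positions cannot be told apart. U8, or Snord118, had 40 and 21 reads in NEBNext, 4 and 5 in TruSeq and 30 and 20 in TailorMix, and was higher with TailorMix than with TruSeq (log2 fold change 3.44 ± 0.48 SE, edgeR adjusted p = 0.00866). The H/ACA RNA U17 (Snora73) had 3 reads in all. Of the 6 members of the group tested, 1 was lower with TruSeq than with NEBNext, against 16.1% of all features. With TailorMix 3 were higher than with NEBNext and 3 than with TruSeq, against 23.7% and 30.4% of all features. The Snord118 call over NEBNext was lost under 11 of 16 other settings and turned under 1.

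Gas5, Snhg1 and Rpl13a, 3 of the host genes with several snoRNAs, had their highest shares of snoRNA reads with NEBNext, unlike Snhg14 and Hspa8. The 8 features of Gas5, a noncoding host known for growth arrest, had 80 and 71 reads in NEBNext, 13 and 6 in TruSeq and 21 and 20 in TailorMix. The 8 features of Snhg1 had 104 and 93, 27 and 21, and 33 and 28 reads. The 4 features of Rpl13a had 24 and 21, 8 and 3, and 7 and 4 reads, most of the NEBNext reads on Snord32a. The share of snoRNA reads in Gas5 was 2.91% and 3.32% in NEBNext, 0.655% and 0.386% in TruSeq and 1.13% and 1.04% in TailorMix, so that NEBNext libraries were highest without overlap, as they were for the other 2 hosts. The lead of NEBNext over TailorMix did not carry over to RPM. There the median log2 fold change of TailorMix over NEBNext for the tested members was -0.10 in Gas5, 0.16 in Snhg1 and 0.17 in Rpl13a. Snord22, the leading RNA of Snhg1, had 68 and 58 reads in NEBNext, 7 and 4 in TruSeq and 22 and 22 in TailorMix, and was higher with TailorMix than with TruSeq in RPM (log2 fold change 3.00 ± 0.40 SE, edgeR adjusted p = 0.00853). Of the tested members, 1 of 5 in Gas5, 1 of 4 in Snhg1 and 1 of 2 in Rpl13a were lower with TruSeq than with NEBNext, against 16.1% of all features. The Rpl13a member, Snord32a, passed the filter of 4 reads in 2 libraries only through the NEBNext libraries, so its direction was fixed by that filter. The Gas5 member was Gm23212, with 46 and 40 reads in NEBNext, 7 and 5 in TruSeq and 9 and 11 in TailorMix, and its call was lost under 9 of 16 other settings. Snord32a had 20 and 17 reads in NEBNext, 0 and 0 in TruSeq and 1 and 1 in TailorMix, at least 3.06-fold higher with NEBNext than the floor of 3 reads with TruSeq.

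Among the RNAs of introns of coding genes, Gm24920, in Pip5k1a, was higher with TailorMix than with NEBNext. It had 3 and 0 reads in NEBNext, 12 and 3 in TruSeq and 40 and 70 in TailorMix. The log2 fold change of TailorMix over NEBNext was 7.13 ± 1.19 SE (edgeR adjusted p = 0.0137). Its size is uncertain, since no NEBNext library had more than 3 reads. Outside TailorMix only TruSeq replicate 1 had at least 4 reads, so Gm24920 passed the filter of 4 reads in 2 libraries only with the TailorMix libraries. Gm24920 and Gm22192, described below, are both 85 bases long and nearly identical, so reads on the shared sequence cannot be told apart. Snord57, in an intron of Nop56, which encodes a protein of the C/D particle itself, had 86 and 48 reads in NEBNext, 50 and 70 in TruSeq and 126 and 96 in TailorMix. Gm25835 in Eif4a1 had 94 and 80, 139 and 87, and 38 and 43 reads, and Snord83b in Rpl3 had 69 and 65, 112 and 87, and 23 and 19. In RPM, Snord57 was highest in both TailorMix libraries, at 24.5 and 18.1 against 3.28 and 2.83 in NEBNext and 4.30 and 7.43 in TruSeq. Gm25835 and Snord83b were instead highest in both TruSeq libraries, at 11.96 and 9.24 RPM and at 9.64 and 9.24 RPM.

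The called folds of TailorMix over NEBNext that ranked among the largest included 2 further C/D RNAs, Gm24494 and Gm22192. Both passed the filter of 4 reads in 2 libraries only through the TailorMix libraries, so the direction of their calls was fixed by it. Gm24494 had 3 and 0 reads in NEBNext, 2 and 2 in TruSeq and 11 and 11 in TailorMix. Gm22192, whose reads cannot be told apart from those of Gm24920 over most of the gene, had 2 and 0, 1 and 1, and 28 and 6 reads. The TailorMix libraries were highest for both without overlap, but with at most 3 reads in any other library no fold is given, and the calls over NEBNext were lost under 2 of 14 and 8 of 13 other settings. Snord15b, a C/D RNA of the ribosomal protein gene Rps3, had 98 and 66 reads in NEBNext, 12 and 13 in TruSeq and 10 and 11 in TailorMix, so its counts were highest with NEBNext, and in RPM too, at 3.73 and 3.89 against at most 2.08 elsewhere. Gm25091, in Rpl21, had 73 and 56, 56 and 32, and 7 and 4 reads. The scaRNAs with the most reads after Mir1839 were Scarna3b, with 79 and 65, 48 and 18, and 8 and 14 reads, and Gm26083, with 74 and 53, 29 and 14, and 33 and 34 reads.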

How the data were processed

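Reads were counts deposited by the authors without normalization, for each library a list of miRNAs and a list of distinct sequences with class and gene. Before depositing, the authors trimmed adaptors (Cutadapt 1.8.1), dropped short and low-quality reads, mapped without mismatches (Bowtie 1.1.2) to GRCm38 (mm10) and annotated by position. snoRNA features were matched by Ensembl identifier to GENCODE M21, with miRNAs from RefSeq (GRCm38.p6), in Python 3.11.15 (scipy 1.17.1, numpy 2.4.6, pandas 2.3.3). Box classes came from names, then the box motifs (H/ACA from 110 bases), then words of 18 bases shared with a single named class. Host genes were taken by position on the same strand, a membership chosen after seeing the data.

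Features reaching 4 counts in 2 or more libraries were fitted in edgeR 4.0.16 (R 4.3.3; glmQLFit, glmQLFTest, annotated reads as library size, all 6 libraries, no block) with Benjamini-Hochberg adjustment over all of them, and DESeq2 1.42.0 as an alternative. Scripts were tested on simulated data with a 4-fold change of TruSeq over NEBNext. The edgeR fit recovered 62 of 197 changed features, among them 11 of 19 snoRNA features, and called 3 of 749 unchanged ones. Many changes of that size can thus be missed. Named features were the 10 with the highest mean share, the 3 highest of each kit, the 5 largest called folds without overlap of each contrast, and up to 4 members of each list (box classes, Gas5, Snhg1, Rpl13a, Prader-Willi and Dlk1-Dio3 hosts, precursor cleavage, PCR references). Gm25296, Snord73a and the features found with NEBNext alone were named after their values were seen. Members and lists were chosen with earlier results of these data known. Of the named features, 1 is not reported here, and list members with few reads are given only within their lists.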

Additional observations from a re-analysis of the deposited data

Results flagged for a closer look

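Besides the sequences classed as snoRNA alone, 7 reads in NEBNext replicate 1 and 5 reads in NEBNext replicate 2 were listed as both piRNA and snoRNA and entered none of the comparisons. Both stood above the 3 reads that a count of 0 allows. The TruSeq libraries had 0 such reads and the TailorMix libraries 1 each.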

How the results depend on the processing

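Against annotated reads, the mean snoRNA share was 0.0115%, 0.0168% and 0.0362% for NEBNext, TruSeq and TailorMix. It was 0.987%, 0.531% and 0.804% of reads other than tRNA, 4.63%, 11.1% and 4.74% of reads neither tRNA nor miRNA, 0.00666%, 0.0121% and 0.0259% from sequences with at least 4 reads, and 0.0362% for TailorMix with the sequences of 2 classes added. The mean C/D share was 45.0%, 62.5% and 36.8% from names alone (chosen after seeing the data) and 87.3% for TruSeq from sequences with at least 4 reads. The mean number of features detected was 49.5, 29.5 and 44 from such sequences, 66.0, 46.5 and 53.5 after thinning, 171.5, 121.0 and 151.5 with at least 1 read and 48.5, 25.5 and 31 with at least 10, and the 10 leading features took 60.1%, 79.01% and 76.2% from sequences with at least 4 reads. NEBNext kept the most features under all 4 of these settings.

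Of 18, 21 and 33 called features, scaling to reads other than tRNA gave 37 between TruSeq and NEBNext, thinning gave 10 and a fit without tRNA and piRNA features, chosen after seeing the data, gave 29. With 1 library left out the counts ran from 4 to 15 between TruSeq and NEBNext, 6 to 20 between TailorMix and NEBNext and 12 to 28 between TailorMix and TruSeq, fits with fewer samples, in which a lone library of a kit was assumed to vary like the others. Of 13, 13 and 22 calls among named features, 4 to 10, 4 to 12 and 9 to 19 were left. The replicate block gave 9, 13 and 19 features, and 8 and 12 named ones between TruSeq and NEBNext and between TailorMix and TruSeq. The labels share only a number between kits, and same-numbered libraries deviated together with r = 0.042, 0.467 and 0.213 over 58 features, which did not exceed 0.1 in every pair, so the numbers were not taken as pairs.

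Of 744 values of the 48 called named differences under 16 settings, 533 stayed past the threshold, 207 did not and 4 turned. Of TailorMix over NEBNext, Snord104 turned to -0.041 scaled to snoRNA reads and -0.34 scaled to reads other than tRNA, and Snord118 to -0.18 under the latter, as did Gm25835 of TruSeq over NEBNext, to -0.077. The cause was not tested. Counts of 1555 to 2750 snoRNA reads a library limit all single features, since 3 reads are 0.109% to 0.193% of them.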
